A study of Mus musculus with 8 samples.

Results

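The shRNA arm of this study consisted of 2 arrays, one labelled shLacZ and one labelled shYAP/TAZ, out of 8 arrays in the series. Both held RNA of isolated intestinal epithelial cells, and the animals were ICR mice, which are outbred, all male and 8 weeks old. Their small intestine had been transfected in the living animal with a plasmid that expressed a hairpin RNA against LacZ, a bacterial gene that mice do not have, or with plasmids that expressed hairpin RNAs against YAP and TAZ, and the mice were then fed for 4 days. The other 6 arrays carried synthetic siRNAs in place of plasmids, 3 labelled siGFP and 3 labelled siYAP/TAZ, with the same strain, sex, age and interval, and the labels name siGFP arrays 1 to 3 as the controls for siYAP/TAZ arrays 1 to 3, without saying that a pair shares a mouse or a day. The labels name neither the promoter of the plasmids nor the share of cells transfected, and they do not tie an array to a number of mice. With 1 array per plasmid there is no replicate and no test in this arm, so every difference below describes these 2 arrays, and the 3 siGFP arrays show how far arrays of one label lay apart.

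YAP (gene Yap1) and TAZ (gene Wwtr1) are transcriptional coactivators that bind TEAD factors on DNA. The kinases of the Hippo pathway phosphorylate them and hold them in the cytoplasm. In the intestine they are known for regeneration after injury, for their exchange with Wnt signalling in the crypt and for the choice between proliferation and differentiation. A short hairpin RNA is cut inside the cell into a small interfering RNA that pairs with the target mRNA, so both arms were designed to lower the same mRNAs by different means of delivery.

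A difference below is the log2 level on the shYAP/TAZ array minus that on the shLacZ array, after quantile normalisation over all 8 arrays, and 1 unit is a factor of 2. Counts cover the 13292 of 19938 genes left after the dimmest 33.3% by mean log2 level over the 8 arrays were set aside, which kept genes with a mean above 5.99. That mean includes the shYAP/TAZ array, so a high level there helps a gene into the counts. The median deposited intensity was 88.9 on the shLacZ array and 95.5 on the shYAP/TAZ array. Across genes the shRNA arrays correlated at r = 0.942 with each other, and the shLacZ array correlated more closely with siGFP array 1, at 0.963. The epithelial markers on both arrays matched the labelled tissue: Epcam, an epithelial adhesion molecule, stood at 11.80 and 11.47 in shLacZ and shYAP/TAZ, and Vil1, which bundles actin in the brush border, at 11.59 and 11.39. None of the 12 epithelial markers differed by 2-fold, and their median difference was 0.02. Neither array carried the ileal bile acid binding protein Fabp6 at a level far above the array floor (4.33 in shLacZ and 4.27 in shYAP/TAZ), as on siGFP array 2 (4.24) and siYAP/TAZ array 3 (4.40), whereas the other siRNA arrays held 8.75 to 11.93. The arrays of the siRNA arm therefore differed among themselves in an ileal gene at which the shRNA arrays did not differ.

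In all, 789 genes (5.94%) differed by 2-fold or more between the shRNA arrays, 297 (2.23%) higher and 492 (3.70%) lower in shYAP/TAZ. Pairs of siGFP arrays, which share a label, differed at that size in 1154 (8.68%), 3852 (29.0%) and 2231 (16.8%) genes, so the number of 2-fold differences in the shRNA arm was below that between siGFP arrays. Pairs of siYAP/TAZ arrays differed in 38.6%, 34.0% and 5.35% of genes. Of all genes, 36.8% had the shYAP/TAZ array and 34.1% the shLacZ array outside the range of the siGFP arrays. At any size 48.1% of genes were higher and 51.9% lower. For a list below with no share beside its 2-fold counts, the shares over all genes are 2.23% higher and 3.70% lower. The median of all differences was -0.02, and the 5th and 95th percentiles were -0.87 and 0.69. Just inside the 2-fold line stood Aldh6a1 (-1.0003), and just outside it stood Trf (0.9998). A stricter description asks for genes whose difference was larger than the whole range of the 6 siRNA-arm arrays: 92 genes (0.692%) were higher and 152 (1.14%) lower by that rule.

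**Figure D1:**
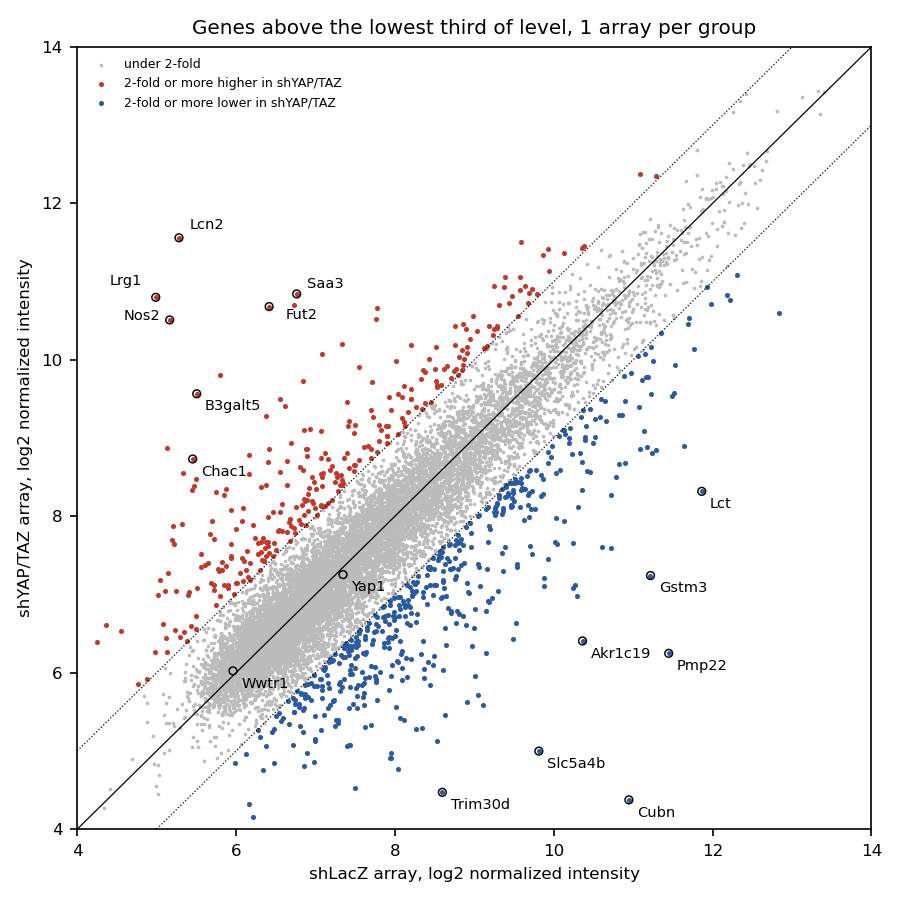
Log2 level of each gene on the shYAP/TAZ array (vertical axis) against the shLacZ array (horizontal axis), with genes at 2-fold or more coloured and the largest differences named. Yap1 (7.35 and 7.25) lies on the diagonal, as does Wwtr1 (5.96 and 6.02), which is marked although its mean level is among the genes set aside as dim, while Lcn2, Lrg1 and Nos2 lie far above the diagonal and Cubn and Pmp22 far below it.

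The targeted genes differed little. Yap1 was at 7.35 in shLacZ and 7.25 in shYAP/TAZ, a difference of -0.09, while the siGFP arrays held 7.16, 7.64 and 7.20 and the siYAP/TAZ arrays 7.41, 6.78 and 7.47. Wwtr1 was at 5.96 and 6.02, a difference of 0.06, against 6.16, 5.36 and 6.52 in siGFP and 5.60, 5.94 and 5.66 in siYAP/TAZ. Both differences were smaller than the range of the siGFP arrays, so the mRNA levels of YAP and TAZ did not separate the array labelled shYAP/TAZ from its control. Protein was not measured on these arrays, and every direction given below rests on the label of that array.

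Genes that YAP and TAZ are known to drive were spread around 0. Among the 22 measured above the dim genes, 1 was higher by 2-fold and none lower, and the median difference was 0.03 beside -0.02 over all genes. Against the mean of the siGFP arrays, a comparison added after the values were seen, none was higher, 2 were lower and the median was -0.19, so the sign of this small median depended on the control. Ccn2, a secreted matrix protein and standard YAP reporter, stood at 7.09 in shLacZ and 7.80 in shYAP/TAZ (0.71). Ccn1, a related matrix protein, was at 6.58 and 6.56, and Ankrd1, a muscle ankyrin protein used as a reporter in many cell types, at 6.47 and 6.72. The gene past 2-fold was Wwc1, which encodes the Hippo scaffold KIBRA and is itself a known YAP target, at 7.82 and 9.10 (1.28). It is also a member of the YAP, TAZ, TEAD and Hippo list, in which it was the only one of 21 past 2-fold and the median was 0.00.

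The largest differences upward were in genes of mucosal defence. Lcn2, an iron-scavenger-binding protein that epithelium secretes in inflammation, stood at 5.28 in shLacZ and 11.56 in shYAP/TAZ, 77.7-fold. Its level was 5.07, 5.30 and 5.23 on the siGFP arrays and 11.09, 4.93 and 4.86 on the siYAP/TAZ arrays. High Lcn2 was thus shared by the shYAP/TAZ array and siYAP/TAZ array 1, and all other arrays lay within a narrow low band. Lrg1, a secreted glycoprotein of the acute phase, had the same pattern: it rested at 4.99 in shLacZ and 10.80 in shYAP/TAZ (56.1-fold), at 5.17, 5.36 and 5.94 in siGFP and at 12.12, 5.84 and 5.74 in siYAP/TAZ.

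Other defence genes varied within the control label as well. Nos2, the inducible nitric oxide synthase, was at 5.16 in shLacZ and 10.51 in shYAP/TAZ (40.7-fold), but also at 9.21 on siGFP array 1, with 4.83 and 5.76 on the other siGFP arrays and 9.91, 8.03 and 6.82 in siYAP/TAZ. Saa3, a serum amyloid A protein made by epithelium and macrophages, was at 6.76 and 10.84 (16.9-fold), with 6.12, 7.63 and 8.87 in siGFP and 10.09, 7.90 and 7.85 in siYAP/TAZ. Duoxa2, which matures the hydrogen peroxide producing oxidase Duox2, was at 5.49 and 8.48, and its siGFP arrays held 9.37, 5.45 and 5.38. Duox2 itself was at 5.75 and 8.31, with 9.51, 5.11 and 6.42 in siGFP. For Nos2 and Saa3 the shYAP/TAZ array was the highest of the 8, whereas for Duox2 and Duoxa2 siGFP array 1 stood higher still.

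Of 22 mucosal defence and inflammation genes above the dim genes, 7 were higher by 2-fold (31.8%, beside 2.23% of all genes) and 2 lower, 17 were higher at any size, and the median difference was 0.78. Because the filter includes the shYAP/TAZ array, its high level of Lcn2 helped that gene into the 22. Over all 34 measured members, with no filter, 28 were higher at any size and the median was 0.875. The remaining 2-fold members upward were Fut2, a fucosyltransferase described below, and Nfkbia, the inhibitor that restrains NF-kB (1.17). The antimicrobial lectins Reg3b (12.43 and 13.40) and Reg3g (12.26 and 13.16), which keep bacteria away from the mucosa, were near the top of the intensity range on every array and came to 0.97 and 0.90. The 2 members lower were Reg1, a secreted lectin of regenerating tissue (8.04 and 4.77), and Gsdmc2, a pore-forming gasdermin (-1.64). Reg1 was also at 8.35 on siGFP array 2 and 8.77 on siYAP/TAZ array 3, and at 4.68 to 5.49 on the other 4. Several dim members, left out of these counts, stood higher too: Saa1, an acute phase protein, by 3.57 and Retnlb, a bactericidal goblet cell protein, by 3.15, together with the cytokine Il1b by 2.82 and the chemokines Cxcl2 by 2.14 and Ccl20 by 2.10. With these and the other dim members in the count, 15 members were 2-fold higher. On siYAP/TAZ array 1 Retnlb reached 11.26, against 7.23 on the shYAP/TAZ array.

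STAT3 is the factor through which IL-6 and IL-22 drive acute phase and barrier genes in epithelium. Of 13 STAT3 response genes, 2 were higher by 2-fold (15.4%, beside 2.23% of all genes), none was lower, and 11 lay above 0 (48.1% of all genes did) with a median of 0.53. Against the siGFP mean 4 were 2-fold higher and the median was 0.38. Those past 2-fold were Lrg1 and Socs3, the feedback inhibitor of cytokine receptors, which was at 6.38 in shLacZ and 9.28 in shYAP/TAZ (2.91). Its siGFP arrays held 6.41, 6.66 and 7.09 and its siYAP/TAZ arrays 9.48, 8.00 and 8.85, so every knockdown-labelled array of both arms was above every control array. The share of all genes with such an arrangement was not counted. A second, dimmer probe set of Socs3 came to 0.73. Bcl3 (0.81) and Tnfrsf1a (0.96) were the next largest.

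The 250 bases before the annotated start of 3 of these genes are shown because the genes lead the group and their sequences hold a match, in capitals, to a motif searched in the set of Lcn2, Lrg1, Saa3 and Socs3. Sequences are from RefSeq, build GRCm38.p6, 5′ to 3′ on the gene's strand. Lcn2 is on the minus strand at chr2:32387740-32387989, Saa3 on the minus strand at chr7:46715677-46715926 and Socs3 on the minus strand at chr11:117969367-117969616.
Lcn2: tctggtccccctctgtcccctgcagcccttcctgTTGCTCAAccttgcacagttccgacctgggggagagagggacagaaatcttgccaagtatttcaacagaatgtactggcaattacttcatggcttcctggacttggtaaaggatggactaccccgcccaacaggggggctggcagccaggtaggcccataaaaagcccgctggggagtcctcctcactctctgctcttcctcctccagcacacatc
Saa3: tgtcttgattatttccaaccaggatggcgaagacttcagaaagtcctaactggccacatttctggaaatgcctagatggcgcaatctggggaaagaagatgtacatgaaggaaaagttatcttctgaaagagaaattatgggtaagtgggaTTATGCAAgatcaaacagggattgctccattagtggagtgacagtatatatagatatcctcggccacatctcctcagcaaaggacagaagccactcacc
Socs3: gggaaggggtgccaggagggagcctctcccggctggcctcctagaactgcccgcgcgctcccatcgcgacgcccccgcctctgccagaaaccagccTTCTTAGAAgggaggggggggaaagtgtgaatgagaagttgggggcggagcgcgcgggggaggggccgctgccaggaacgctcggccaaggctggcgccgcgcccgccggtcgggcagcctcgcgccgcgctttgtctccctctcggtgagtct
The motifs searched on both strands were an NF-kB-type motif of GGGA, any 2 bases and TTCC, a C/EBP-type TTGCNNAA and a STAT-type TTCNNNGAA. They occur in 1.21%, 9.57% and 7.02% of 32841 such windows. Lcn2 held a C/EBP-type match starting 216 bases before the start, Saa3 one on the other strand starting 99 bases before it (the same letters also fit the D-box searched for the clock genes), and Socs3 a STAT-type match starting 154 bases before it, while the Lrg1 window held none of the 3. A match describes the letters only and does not mark a bound site.

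Markers of myeloid cells also stood higher on the shYAP/TAZ array. In siRNA comparison 1, with Lcn2 and Lrg1 likewise high on the siYAP/TAZ array, the myeloid median was -0.11. The myeloid and mucosal defence lists share S100a8 and S100a9. Of 11 myeloid genes above the dim genes, 4 were higher by 2-fold and all 11 stood higher (2.23% and 48.1% of all genes), and over all 21 measured members each stood higher, with a median of 0.71. The 2-fold count rested on dim genes: it was 7 with no filter on dim genes and 1 when the dimmer 50% of genes were left out. All 4 were under the filter's cut of 5.99 in shLacZ, and the filter's mean includes the shYAP/TAZ array, where they were higher. The 4 of 11 is therefore not independent of that array. The 2-fold members were Cybb, the phagocyte oxidase subunit (5.44 and 8.34), Mpeg1, the macrophage perforin (5.02 and 6.99), Itgam, an integrin of macrophages and neutrophils (5.56 and 7.51), and Csf1r, the receptor that macrophages need for survival (5.82 and 7.32). Among the dim defining markers Adgre1, the macrophage antigen F4/80, was at 5.20 and 6.62, Cd68, a macrophage lysosomal protein, at 6.10 and 6.81, and S100a9, a neutrophil alarmin, at 5.14 and 7.40. The summed normalised intensity of the 21 measured members was 3164.7 in shLacZ, the lowest of the 8 arrays, and 4676.3 in shYAP/TAZ, the highest, with 3409.8 to 4380.1 in siGFP and 3471.8 to 3717.1 in siYAP/TAZ. The part of these cells in the defence values was not tested. In RNA from a cell mixture, more cells of a type and more RNA per cell cannot be told apart, for this list or for any cell type below.

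Myeloid-associated genes also appear among the largest single differences. Wfdc17, a secreted protein of activated macrophages, was at 5.80 and 9.81 (16.1-fold), Pla2g7, a lipoprotein-associated phospholipase of macrophages, at 5.47 and 8.38, and Chil1, a chitinase-like protein of inflamed epithelium and macrophages, at 5.13 and 8.88. All 3 exceeded the levels of the 6 siRNA-arm arrays, on which the highest was 8.33 for Wfdc17, 6.68 for Pla2g7 and 6.52 for Chil1. Lgmn, a lysosomal cysteine protease, was at 7.78 and 10.66, while siYAP/TAZ array 1 reached 10.65. Ufsp1, a protease of the UFM1 modifier pathway, was at 6.55 and 9.51, beyond 5.22 to 7.14 on the siRNA-arm arrays. Cwc22, a splicing factor, was at 6.72 and 10.70, but its near-identical probe sets and its wide range within the siRNA arm (5.37 to 9.82) make it uncertain.

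**Figure D2:**
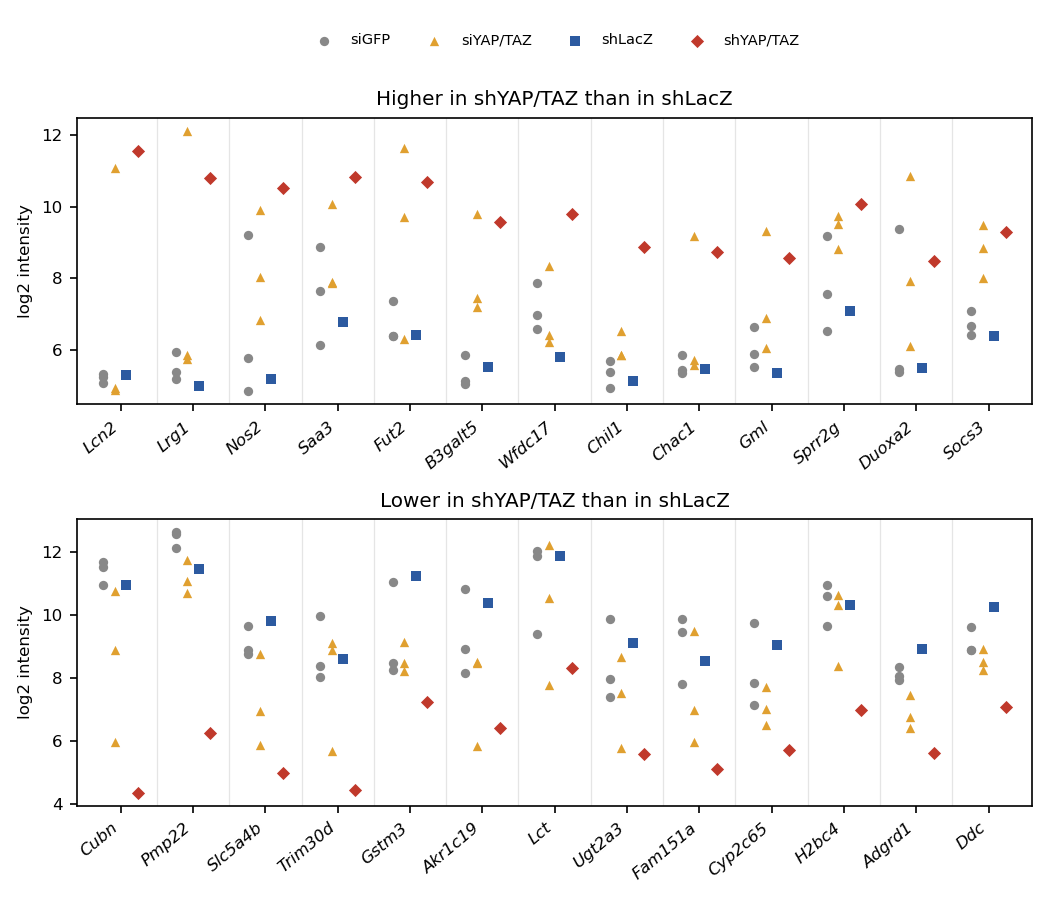
Log2 intensity (vertical axis) on all 8 arrays for genes among the largest differences, with those higher in shYAP/TAZ in the upper panel and those lower in the other, and a marker for each array in the colour of its label. For Lcn2 and Lrg1 the shYAP/TAZ array and siYAP/TAZ array 1 stand apart from the rest, and for Cubn the shYAP/TAZ array (4.37) is the lowest of all.

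Some enzymes that build surface sugars had large single differences. No list covered them and they were put together after their values were seen, so nothing was counted for the group. Fut2 adds the terminal fucose that gut bacteria feed on, and it was at 6.42 in shLacZ and 10.68 in shYAP/TAZ (19.2-fold), with 7.35, 6.39 and 6.39 in siGFP and 11.64, 9.72 and 6.30 in siYAP/TAZ. B3galt5, which elongates type 1 chains with galactose, was at 5.50 and 9.57 (16.7-fold), with 5.83, 5.11 and 5.03 in siGFP and 9.81, 7.44 and 7.18 in siYAP/TAZ. It was one of the genes for which all knockdown-labelled arrays of both arms lay above all control arrays, and the number of such genes was not counted. B3gnt7, which extends sulphated and type 2 chains with N-acetylglucosamine, was at 6.93 and 9.11 (2.18) and had a siGFP range of 5.65 to 7.74. Chst4, a sulphotransferase for N-acetylglucosamine, was at 6.62 and 9.41 (2.79).

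Some amino acid stress genes were among the higher genes on the same array. Chac1, which degrades glutathione and is a target of the stress factor ATF4, was at 5.45 and 8.73, with 5.85, 5.42 and 5.35 in siGFP and 9.18, 5.55 and 5.71 in siYAP/TAZ. Asns, which makes asparagine, was at 8.20 and 10.19, and Slc7a5, which imports large neutral amino acids, at 6.89 and 8.85. On siYAP/TAZ array 1 these stood at 10.93 and 10.21, and on siYAP/TAZ arrays 2 and 3 they stood at 7.06 and 7.45 for Asns and at 6.12 and 5.47 for Slc7a5. The pattern of Lcn2, high in shYAP/TAZ and on siYAP/TAZ array 1 alone, therefore recurred in Chac1 and Slc7a5. Of 27 unfolded protein response genes, however, only these 2 members Chac1 and Asns were 2-fold higher, none was lower, and the median was -0.15. At any size 7 of that list lay above 0 and 20 below (48.1% and 51.9% of all genes did). Below 2-fold, its members Atf4 (0.82) and Trib3 (0.53) stood higher, and Atf3 (-0.58) and Ddit3 (-0.29) lower. Among 18 amino acid and peptide transporters 2 were higher, Slc7a5 and the proton-coupled Slc36a1 (1.24), and 2 lower, Slc7a8 (-1.38) and the proline transporter Slc6a20a (-1.60).

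The largest difference of all was downward, in Cubn. Cubilin is the receptor that takes up the intrinsic factor and vitamin B12 complex, and it was at 10.95 in shLacZ and 4.37 in shYAP/TAZ, 95.2-fold lower. The siGFP arrays held 10.96, 11.52 and 11.69 and the siYAP/TAZ arrays 5.97, 10.75 and 8.90. By rank among the genes of its own array, Cubn stood at percentile 98.7 in shLacZ and at 1.10 in shYAP/TAZ. Amn, amnionless, the protein that anchors cubilin in the membrane, was at 8.87 and 7.40 (-1.47).

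Pmp22, a membrane protein of junctions and myelin, was at 11.45 and 6.25 (36.8-fold lower). It lay between 10.68 and 12.62 on all 6 siRNA-arm arrays, so the shYAP/TAZ array stood alone. The sodium-coupled sugar transporter family member Slc5a4b was at 9.81 in shLacZ and 28.2-fold lower in shYAP/TAZ (-4.82) against 5.87 to 9.66 on the siRNA-arm arrays. Its close relative Slc5a4a was at 7.94 and 4.91, and probe sets of such near-identical genes can share signal. Adgrd1, an adhesion receptor, was at 8.90 and 5.62, and H2bc4, a histone gene of the H2B family with many near copies, at 10.29 and 6.98. In both the shYAP/TAZ array was the lowest of the 8, and the difference exceeded the whole range of the siRNA arm.

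Brush border hydrolases are the enzymes on the apical membrane of enterocytes that finish digestion. Of 19 genes on the list, none was 2-fold higher, 9 were 2-fold lower (47.4%, beside 3.70% of all genes), and the median was -0.93. The list was not of digestive enzymes alone. Among the 9 were the receptor Cubn (-6.57) and the carboxylesterases Ces2a (-2.25) and Ces1f (-1.88), and Ces2a was also counted among the xenobiotic genes. The members were uneven: lactase, Lct, was at 11.86 and 8.32 (-3.55), the sphingomyelinase Enpp7 at -2.05, the endopeptidase neprilysin, Mme, at -1.67 and intestinal alkaline phosphatase, Alpi, at -1.27. The disaccharidases sucrase-isomaltase, Sis (-0.45), and maltase-glucoamylase, Mgam (0.11), differed little, as did the aminopeptidases Anpep (12.82 and 13.18) and Enpep (11.88 and 11.92). Lct was at 9.39, 12.01 and 11.87 in siGFP and 7.78, 10.53 and 12.22 in siYAP/TAZ, so siGFP array 1 and siYAP/TAZ array 1 were low there as well. In siRNA comparison 1 the median of the list was lower by a factor of 2, and in comparisons 2 and 3 it was -0.25 and -0.31.

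Sugar transport and metabolism genes went both ways: 2 of 20 were higher and 5 lower by 2-fold, with a median of -0.14. Against the siGFP mean the balance turned, with 5 higher, 3 lower and a median of 0.56. Beside the Slc5a4 genes the lower ones were Slc5a11 (-2.14), the gluconeogenic Fbp1 (-1.21) and the basolateral glucose carrier Slc2a2 (9.15 and 8.10, but 1.45 above the siGFP mean), and the higher ones were hexokinase 2, Hk2 (6.58 and 8.16), and Txnip, a sugar-responsive regulator of redox state and glucose uptake (9.47 and 10.82). The main apical glucose carrier, Slc5a1, was at 11.34 and 11.25. Fat absorption and chylomicron genes had 1 of 23 higher, the fatty acid receptor Cd36 (9.43 and 10.72), and 1 lower, Apoc3, an apolipoprotein that slows triglyceride clearance (12.84 and 10.60), with a median of -0.11. Of 24 PPAR and fatty acid oxidation genes none was higher and 2 lower, the receptor Ppara (8.71 and 6.79) and the peroxisomal enzyme Ehhadh (-1.30), with a median of -0.24.

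Enzymes that clear foreign compounds were the list with the most members past 2-fold. Of 34 xenobiotic metabolism genes above the dim genes, 30 lay below 0 (51.9% of all genes did), none was 2-fold higher, and the median was -1.50. By 2-fold 23 were lower (67.6%, beside 3.70% of all genes). They spanned oxidation, conjugation and export: cytochrome P450s (Cyp2c65 from 9.05 to 5.71 and Cyp2c66 from 9.15 to 6.79), glutathione transferases (Gstm3 from 11.22 to 7.24 and Gstm1 from 9.53 to 6.64), glucuronosyltransferases (Ugt2b5 by -2.99 and Ugt2b36 by -2.98) and the efflux pumps Abcb1a (-2.19) and Abcc2 (-2.04). Cyp3a13 (10.78 and 11.16) was among the few members not lower. Several of these families hold near-identical genes whose probe sets can share signal.

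On the control side, the shLacZ array itself stood high for some of these genes. Gstm3 was at 8.48, 11.03 and 8.25 in siGFP and at 8.21, 8.49 and 9.14 in siYAP/TAZ, so shLacZ (11.22) sat beside siGFP array 2 and shYAP/TAZ (7.24) lay below all other arrays. Cyp2c65 had the same arrangement, with 7.15, 9.74 and 7.84 in siGFP and 6.50, 7.02 and 7.71 in siYAP/TAZ. Gstm1 did not: at 6.64 the shYAP/TAZ array lay between siGFP array 3 (6.04) and siGFP array 1 (7.68). Against the mean of the 3 siGFP arrays, the shYAP/TAZ array was 2-fold lower in 18 of the 34 genes with a median of -1.01. It lay below all 3 siGFP arrays in 19, while 36.8% of all genes had it outside the siGFP range, above or below. The summed normalised intensity of the 44 measured members of the list was 34521.0 in shLacZ and 15505.8 in shYAP/TAZ, with 19597.1, 43788.9 and 39617.1 in siGFP and 13256.8, 26580.2 and 27680.4 in siYAP/TAZ. The siRNA comparisons had medians of -0.31, -1.05 and -0.21 over these genes.

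Related enzymes outside the list were also among the lowest. Akr1c19, an aldo-keto reductase, was at 10.36 and 6.41 and Ugt2a3, a glucuronosyltransferase, at 9.12 and 5.59. Hsd3b3, a steroid dehydrogenase, was at 7.95 and 4.91, and Maob, which oxidises monoamines, at 10.27 and 7.12. Ddc, which makes dopamine and serotonin from their amino acid precursors, was at 10.24 and 7.08, and both Maob and Ddc were higher in shLacZ than on any siRNA-arm array (at most 9.76 and 9.62). Of 22 retinol genes 4 were lower by 2-fold (18.2%, beside 3.70% of all genes) and none higher, with a median of -0.12. They were the alcohol and retinol dehydrogenases Adh4 (8.64 and 6.36), Adh1 (12.19 and 10.83) and Rdh7 (-2.29) and the retinal dehydrogenase Aldh1a1 (-2.16). Adh1 ran from 8.42 to 12.32 across siGFP, and shYAP/TAZ lay inside that range.

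Genes of the circadian clock and its outputs formed a smaller group. Of 18 circadian clock genes 6 were 2-fold lower (33.3%, beside 3.70% of all genes) and 1 was 2-fold higher (5.56%, beside 2.23%). The median was -0.45. Dbp, a PAR-type factor that drives detoxification genes in a daily rhythm, was at 9.02 in shLacZ and 5.96 in shYAP/TAZ, with 6.61, 9.22 and 6.83 in siGFP and 6.43, 7.62 and 6.54 in siYAP/TAZ. The repressors Nr1d1 (9.88 and 7.21) and Nr1d2 (8.36 and 6.41), the period gene Per3 (-1.55), the PAR factor Tef (8.06 and 6.97) and the mitotic kinase Wee1 (7.45 and 6.42) were lower as well. Nfil3, which opposes Dbp at the same DNA element, was higher (6.24 and 7.73), and Arntl, the core activator BMAL1, differed by 0.42. The core genes Clock (9.47 and 9.15) and Per2 (7.59 and 7.33) differed less. For Dbp the high arrays were again shLacZ and siGFP array 2, and on the shYAP/TAZ array Dbp, Nr1d1 and Nr1d2 lay below all 7 other arrays. The labels give no time of day, and its part in these values was not tested.

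The promoter of Per3 is shown because, of the windows of Dbp, Nr1d1, Nr1d2 and Per3, it held a match to a D-box or E-box, the motifs searched for this set, and the others held neither. It lies on the minus strand at chr4:151044666-151044915, from the same RefSeq build, and the capitals mark a D-box of the form TTATGNAA.
Per3: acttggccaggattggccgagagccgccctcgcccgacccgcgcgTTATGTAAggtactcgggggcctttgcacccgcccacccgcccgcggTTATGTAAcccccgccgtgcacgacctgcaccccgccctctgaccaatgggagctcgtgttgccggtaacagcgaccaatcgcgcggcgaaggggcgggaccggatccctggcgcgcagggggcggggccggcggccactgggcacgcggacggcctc
The matches start 205 and 158 bases before the start, and 3.07% of the 32841 windows hold this motif. No window of the 4 genes held the E-box CACGTG, which occurs in 6.02% of windows.

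**Figure D3:**
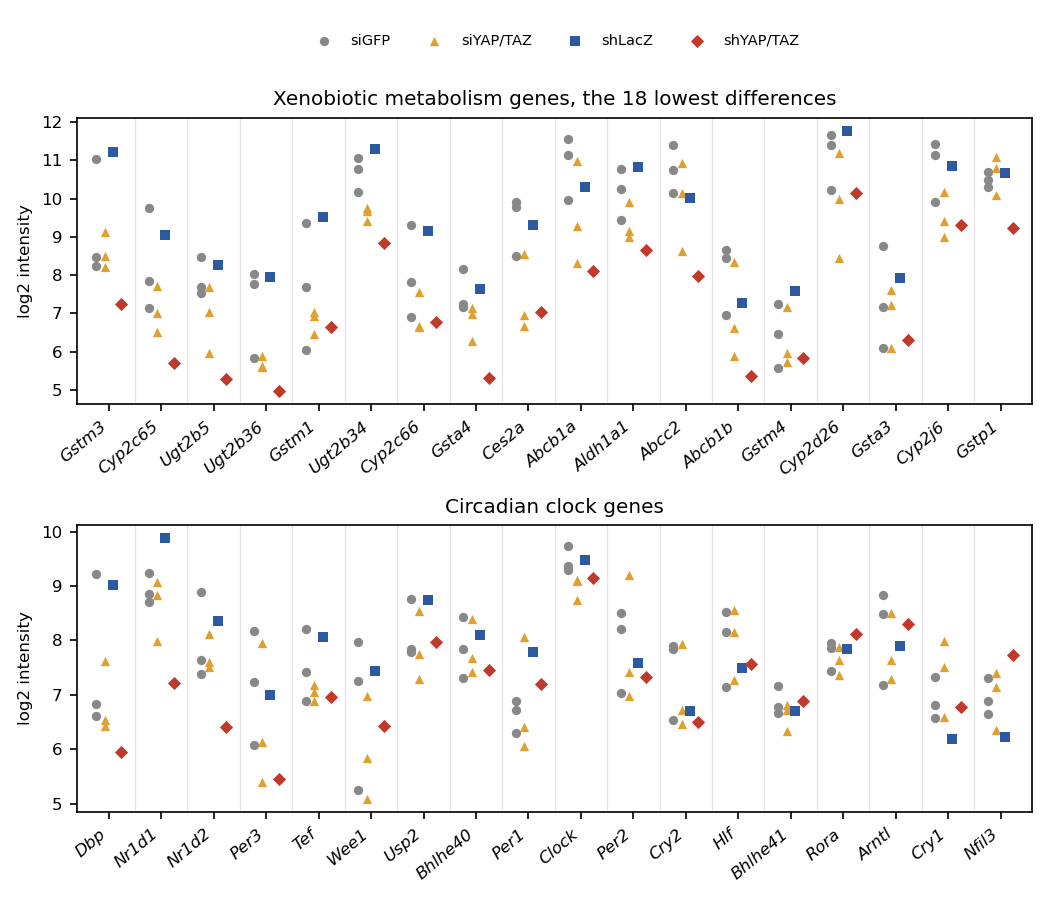
Log2 intensity (vertical axis) on the 8 arrays of the 18 xenobiotic metabolism genes with the lowest differences (upper panel) and the 18 clock genes (lower panel), with a marker for each array in the colour of its label. The shLacZ array lies at or near the top for Gstm3 and Dbp together with siGFP array 2, and the shYAP/TAZ array lies at or near the bottom.

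Cholesterol synthesis genes stood higher. Of 20, 6 were 2-fold higher (2.23% of all genes were) and none 2-fold lower (3.70% of all genes were). The median was 0.73. Squalene synthase, Fdft1, was at 8.75 and 10.43 (1.68), and farnesyl diphosphate synthase, Fdps, at 8.84 and 10.13 (1.29). Squalene epoxidase, Sqle (7.50 and 8.66), the demethylase Cyp51 (7.34 and 8.47), Hsd17b7 (7.28 and 8.51) and the early enzyme Hmgcs1 (9.28 and 10.40) completed the group. The siGFP arrays were wide in these genes: Fdft1 ran at 10.07, 7.92 and 8.34 and Sqle at 9.32, 6.59 and 7.27. On siGFP array 1 both were close to or above the shYAP/TAZ array, and the medians of the siRNA comparisons over the list were -0.03, -0.00 and -0.63.

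Crypt genes stood lower by smaller amounts. Of 21 crypt base stem cell markers 18 lay below 0 (51.9% of all genes did), none was 2-fold higher, and the median was -0.49. By 2-fold 5 were lower (23.8%, beside 3.70% of all genes). They included Olfm4, a secreted crypt glycoprotein (10.46 and 8.56), and the stem cell factor Ascl2 (7.16 and 5.54). The others were the stem cell marker Lgr5 (7.11 and 6.04), the sorting receptor Ephb3 (6.82 and 5.73) and the Wnt feedback gene Axin2 (7.12 and 6.07). Smoc2, another stem cell marker, was at 7.31 and 7.17. Olfm4 was at 11.53, 11.37 and 8.00 in siGFP and 9.21, 9.16 and 7.24 in siYAP/TAZ, and Lgr5 at 8.57, 8.30 and 5.48 and at 6.91, 6.13 and 4.95. For both genes siGFP array 3 was below the shYAP/TAZ array, while Axin2 on the shYAP/TAZ array lay below all 3 siGFP arrays (8.11, 7.39 and 7.42). Without normalisation of the deposited values, 2 members of the list were 2-fold lower.

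The same Ascl2, Ephb3, Lgr5 and Axin2 were the 4 of 16 Wnt targets that were 2-fold lower (25.0%, beside 3.70% of all genes). None was higher, and the median was -0.39. Of 13 Notch genes none was higher and 1, Olfm4, lower, with a median of 0.01. Proliferation genes differed less. None of 25 mitotic genes differed by 2-fold (median 0.08), and of 21 DNA replication genes 1 was lower, cyclin E2, Ccne2 (7.43 and 5.82), with a median of -0.22. Ccne2 on the shYAP/TAZ array lay below all 7 other arrays.

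Genes of the secretory lineages are of interest here because YAP and TAZ have been linked to goblet cell differentiation with the factor Klf4. Klf4 was at 8.98 in shLacZ and 9.43 in shYAP/TAZ (0.44), with 9.32, 9.56 and 10.37 in siGFP and 9.08, 9.26 and 9.94 in siYAP/TAZ. Of 12 secretory lineage factors none was 2-fold higher and 1, Foxa3, 2-fold lower (6.48 and 5.28), with a median of -0.24, and Atoh1, the master factor of these lineages, was at 8.07 and 7.44. Of 22 goblet cell genes 3 were lower (13.6%, beside 3.70% of all genes) and none higher, with a median of -0.22. They were the chloride channel regulator Clca1 (11.17 and 8.88), the lectin Reg4 (9.73 and 7.51) and the actin-severing Scin (-1.03). The mucin Muc2 (0.06) and the trefoil peptide Tff3 (0.17) did not follow. Clca1 on the shYAP/TAZ array was below all other arrays, which held 10.09 to 12.08 in siGFP and 10.22 to 10.83 in siYAP/TAZ.

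Paneth cells, the antimicrobial cells of the crypt base, gave 3 of 12 genes 2-fold lower (25.0%, beside 3.70% of all genes), none higher and a median of -0.54. They were Mptx1, a pentraxin (8.50 and 6.21), the antimicrobial ribonuclease Ang4 (10.50 and 8.93) and the phospholipase Pla2g2a (-1.01). Lysozyme, Lyz1, was at 12.39 and 11.75 and the defensin Defa24 at 10.37 and 10.23. Among 20 enteroendocrine genes 1 was higher, cholecystokinin, Cck (7.08 and 8.50), and 2 lower, neurotensin, Nts (7.47 and 5.60), and somatostatin, Sst (8.51 and 7.12), with a median of -0.07. Tuft cell genes had 2 of 13 higher, Alox5ap (5.70 and 7.94), which serves leukotriene synthesis in tuft and myeloid cells, and Fyb (1.08), an adaptor of blood cells, and none lower, with a median of 0.21.

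**Figure D4:**
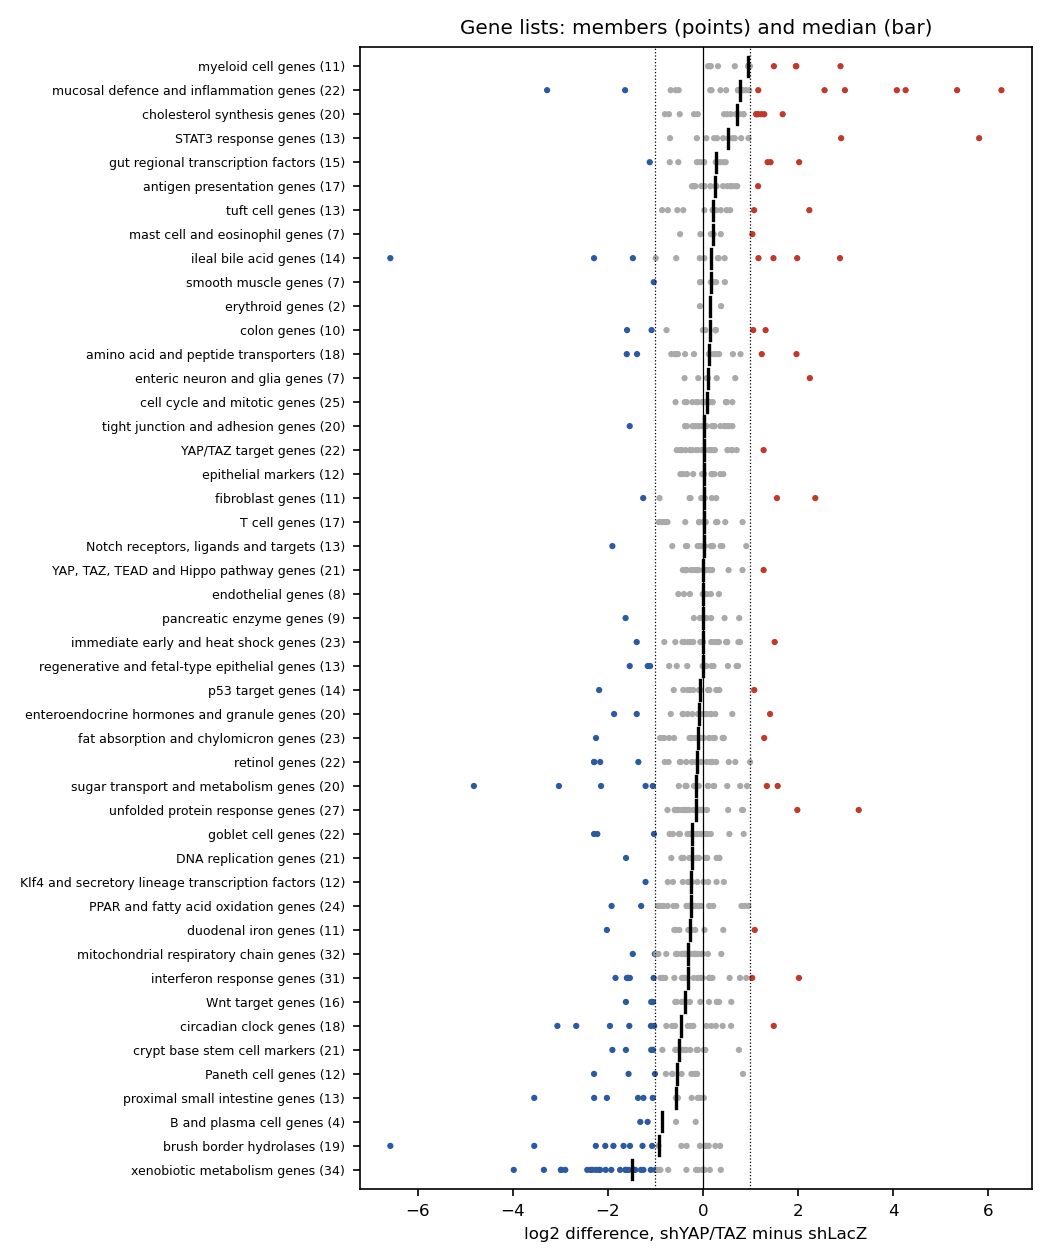
Differences of the members of the gene lists between shYAP/TAZ and shLacZ, in log2 units, with a point for each gene above the dim genes and a bar at each list's median. The xenobiotic list (median -1.50) and brush border list (-0.93) lie furthest below 0, and the myeloid (0.95), mucosal defence (0.78) and cholesterol (0.73) lists furthest above.

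Position along the gut differed among some of these markers and not others. Of 13 proximal small intestine genes 6 were 2-fold lower (46.2%, beside 3.70% of all genes) and none higher, with a median of -0.57. Of these 13, Fabp1 (11.49 and 11.38) and the proximal factor Gata4 (9.22 and 9.16) were level. The folate carrier Slc46a1 was at 10.35 and 8.33 and the retinal enzyme Rdh7 among the lower ones. Against the siGFP mean the median of the same list was 0.03. The ileal bile acid list also held genes of other function. Of its 14 genes 4 were higher (28.6%, beside 2.23% of all genes) and 3 lower (21.4%, beside 3.70%), with a median of 0.17. The lower ones were Cubn, Amn and Mptx1 (-2.29), none of them a bile acid gene. The higher ones were the bile acid carrier Slc10a2 (4.55 and 6.53), Slc51b (1.17), Slc5a8 (1.48) and the protease Lgmn (2.88). Against the siGFP mean 1 was higher and 5 were lower, with a median of -0.40, and Slc10a2 turned to -0.87. It ran at 8.56, 4.79 and 8.85 in siGFP, so the shYAP/TAZ array lay between those arrays. Duodenal iron genes had 1 of 11 higher, Epas1 (1.09), and 1 lower, Slc46a1, with a median of -0.27. Of 15 gut regional transcription factors 3 were higher, Tfcp2l1 (7.06 and 9.09), Onecut2 (8.20 and 9.63) and Prdm1 (6.75 and 8.11), and 1 lower, Osr2 (-1.12), with a median of 0.27. Of 10 colon genes 2 were higher, the membrane mucin Muc3 (11.29 and 12.35) and the carbonic anhydrase Car4 (9.58 and 10.90), and 2 lower, with a median of 0.16.

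Interferon response genes stood low on both shRNA arrays beside the siGFP arrays. Of 31, 2 were higher (6.45%, beside 2.23% of all genes) and 6 lower (19.4%, beside 3.70%) by 2-fold with a median of -0.32. Ifit1, an antiviral RNA-binding protein, was at 8.66 and 6.83, and Oas3, a sensor of double-stranded RNA, at 6.84 and 5.24. Both stood at higher levels in siGFP, at 9.63, 9.42 and 9.89 for Ifit1 and 8.34, 8.11 and 9.39 for Oas3. Of the 31 genes, 30 in shLacZ and 28 in shYAP/TAZ lay below all 3 siGFP arrays. Of all genes, 34.1% in shLacZ and 36.8% in shYAP/TAZ lay outside the siGFP range, above or below it. Zbp1, a sensor of nucleic acids, was higher than in shLacZ (2.02) but stood at -0.14 against the siGFP mean. Over the list that comparison gave 22 lower, none higher and a median of -1.49. Trim30d, an interferon-inducible gene outside the list with near copies, was at 8.60 and 4.47. Of 17 antigen presentation genes 1 was higher, the peptide transporter Tap1 (1.16), and none lower, with a median of 0.26. Against the siGFP mean 2 were lower, none was higher and the median was -0.34, which was also the value of Tap1.

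Stress and structural genes had medians nearer 0, except those of the respiratory chain. Immediate early and heat shock genes had 1 of 23 higher, Ier3 (1.51), and 1 lower, the chaperone Hsph1 (-1.39), with a median of 0.00. Of 14 p53 targets 1 was higher, Pmaip1 (1.08), and 1 lower, Sesn1 (9.54 and 7.36), with a median of -0.07. The regenerative and fetal-type epithelial genes had 3 of 13 lower, claudin 4, Cldn4 (8.77 and 7.23), the alarmin Il33 (6.86 and 5.70) and cyclin D2, Ccnd2 (-1.11), and none higher (23.1% lower, beside 3.70% of all genes), with a median of -0.01. Cldn4 was the 1 of 20 tight junction and adhesion genes past 2-fold, and the median there was 0.03. Of 32 mitochondrial respiratory chain genes 2 were lower, Ndufa2 (7.91 and 6.44) and Ndufb3 (7.75 and 6.74), and 29 lay below 0 (51.9% of all genes did), with a median of -0.31 beside -0.02. Against the siGFP mean that median was 0.12, and 22 of the 32 genes in shLacZ lay above all 3 siGFP arrays. Of all genes 34.1% had shLacZ outside the siGFP range, above or below it.

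Markers of other cell types were mostly level, except those of B and plasma cells, which were lower and mostly dim. The B and plasma cell list had 4 genes above the dim genes, 2 of them lower (50.0%, beside 3.70% of all genes) and none higher. The median of the 4 was -0.86, and all 16 measured members lay below 0. T cell genes, which intraepithelial lymphocytes express, had none of 17 past 2-fold (median 0.02). Mast cell and eosinophil genes had 1 of 7 higher, Mcpt4 (1.04), with a median of 0.21. Fibroblast genes had 2 of 11 higher (18.2%, beside 2.23% of all genes), fibronectin, Fn1 (7.55 and 9.91), and vimentin, Vim (8.11 and 9.67), which macrophages also express. In that list 1 was lower (9.09%, beside 3.70%), Fbln1 (-1.25), and the median was 0.02. Smooth muscle genes had 1 of 7 lower, Mylk (-1.03), with a median of 0.17. None of 8 endothelial genes (median 0.00) or 2 erythroid genes (median 0.16) was past 2-fold. The enteric neuron and glia list had 1 of 7 higher, the receptor Ret (6.69 and 8.94), with a median of 0.11, and the pancreatic enzyme list 1 of 9 lower, colipase, Clps (-1.63), with a median of 0.00.

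The shRNA and siRNA arms share no array, so their differences can be set side by side. Of the 789 genes at 2-fold in the shRNA arm, 677 (85.8%) had the same sign in the mean siRNA difference, against 8420 of all 13292 genes (63.3%). With all 3 siRNA comparisons 281 (35.6%) had the same sign, against 15.6% of all genes. The opposite sign in all 3 was held by 11 (1.39%), against 5.81% of all genes. Taken singly, 614, 608 and 459 of the 789 genes shared the sign of siRNA comparisons 1, 2 and 3, beside 52.5%, 66.3% and 47.4% of all genes. In these comparisons 219 (27.8%), 266 (33.7%) and 99 (12.5%) of the 789 were also 2-fold in that direction. Of all genes, siRNA comparison 1 had 2.31% higher and 3.15% lower by 2-fold, comparison 2 had 5.44% and 10.3%, and comparison 3 had 2.66% and 1.96%. Across genes the shRNA differences correlated with those of siRNA comparisons 1, 2 and 3 at r = 0.33, 0.38 and 0.04 and with their mean at 0.47. These correlations are across genes, which are not independent replicates, and carry no test. The likeness was thus uneven among the siRNA comparisons and least with comparison 3.

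**Figure D5:**
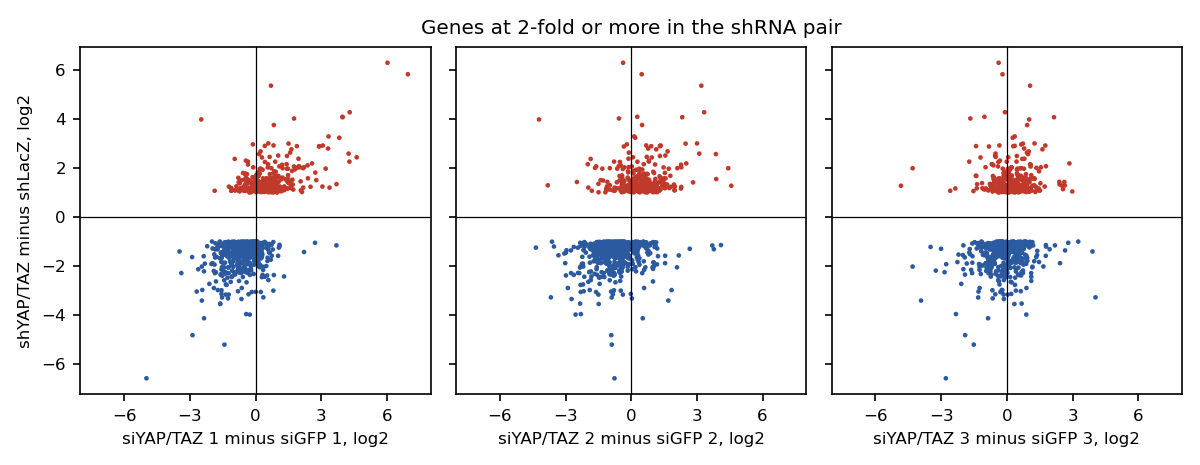
Differences in the shRNA arm (vertical axis, log2) against each of the 3 siRNA comparisons (horizontal axis, log2), with 1 panel per comparison and a point for each of the 789 genes at 2-fold or more in the shRNA arm. In the panels of comparisons 1, 2 and 3, 614, 608 and 459 of the points lie in the quadrants of the same sign.

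Among genes at 2-fold in the shRNA arm and of one sign in all 4 comparisons, several are known in epithelial defence and metabolism. Tifa, an adaptor that senses bacterial sugars and activates NF-kB, was at 7.76 in shLacZ and 10.52 in shYAP/TAZ, with 8.78, 7.40 and 7.92 in siGFP and 10.41, 8.54 and 9.54 in siYAP/TAZ. Gpx2, the gut glutathione peroxidase, was at 10.38 and 11.46, with 11.09, 9.87 and 8.69 and 12.23, 10.88 and 10.20. Both overlapped between the labels, because the lowest siYAP/TAZ array was below the highest siGFP array. Hk2 and Slfn2 (5.14 and 7.27) shared the upward sign.

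Downward, Cachd1, a calcium channel accessory protein, was at 7.33 and 5.82, with 7.71, 7.44 and 7.66 in siGFP and 6.16, 6.23 and 5.98 in siYAP/TAZ. Ghr, the growth hormone receptor, was at 7.92 and 6.62, with 7.72, 8.16 and 7.30 in siGFP and 6.48, 6.40 and 5.60 in siYAP/TAZ. In both genes all control arrays lay above all knockdown-labelled arrays, in either arm. Both were picked for sharing one sign in all 4 comparisons, and the share of all genes so arranged was not counted. The carboxylesterase Ces2a (9.30 and 7.05) and the P450 Cyp2j9 (8.04 and 6.14) had the downward sign in all 4 comparisons as well. Ces2a was separated between the labels with 8.50, 9.91 and 9.79 in siGFP and 6.68, 8.56 and 6.95 in siYAP/TAZ except for 1 crossing, siYAP/TAZ array 2 above siGFP array 1.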

How the data were processed

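RNA of 8 samples was labelled with the Affymetrix WT Terminal Labeling kit and hybridised to 1 array each, per the labels' protocols. The authors deposited linear intensity values, 1 per probe set, none below about 16. For background correction, summarisation and scaling, the method is not given in the sources. Of 28853 probe sets, 21789 name 1 gene in the platform annotation, 1621 name several and 5443 have no listed gene. The last 2 kinds were left out, and 21698 symbols were matched to the RefSeq gene table of GRCm38.p6, which also gave the promoter windows. Values were set to log2 and quantile normalised over the 8 arrays, the probe set with the highest mean stood for each of 19938 genes, and the dimmest 33.3% of genes were left out of counts. Arrays give no read depth, and their number limits the precision.

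Groups came from the labels. With 1 array per plasmid no test was run. A gene counted as past the fold at 2-fold or more. Lists were described by counts and medians beside all genes. Named genes were the 15 with the largest differences each way, the targets Yap1 and Wwtr1, up to 6 members of each of the 47 lists with the largest differences and the defining markers, up to 10 genes per direction whose difference exceeded the range of the siRNA arm, and up to 8 per direction with the same sign in all comparisons. Others are named as chosen after their values were seen. The members and lists were chosen with earlier results of these data known. Alternatives were no normalisation, centring on the 75th percentile, quantile normalisation of the pair alone, other filters on dim genes, the mean of all probe sets, subtraction of 16, folds of 1.5 and 3, and, added after the values were seen, the siGFP mean as control. The steps were tested on simulated data. Python 3.11.15, numpy 2.4.6, pandas 2.3.3 and matplotlib 3.10.9 were used.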

Additional observations from a re-analysis of the deposited data

Results flagged for a closer look

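Cd22, an inhibitory receptor of B cells, was lower in shYAP/TAZ by the shRNA comparison (-1.3161) while all 3 siRNA comparisons had the other sign. It stood at 6.38 in shLacZ and 5.07 in shYAP/TAZ, at 5.15, 5.54 and 6.75 in siGFP and at 5.24, 9.31 and 8.71 in siYAP/TAZ. Cd79b, a chain of the B cell receptor, did the same (-1.1622), at 6.12 and 4.96 against 5.16, 5.10 and 5.67 in siGFP and 5.32, 8.81 and 6.80 in siYAP/TAZ. In both genes siYAP/TAZ arrays 2 and 3 were the highest of the 8. The difference between the arms was not tested.

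Probe sets with no listed gene or with several genes entered no comparison. Of the 3806 such probe sets above the level cut for dim genes, 148 were 2-fold or more higher and 65 lower in shYAP/TAZ. Higher ones thus outnumbered lower ones, whereas of the 13292 genes 297 (2.23%) were higher and 492 (3.70%) lower. The cause of this contrast was not tested.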

How the results depend on the processing

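No paired analysis was possible because the shRNA comparison has 1 array per label and comes from no test. The 297 higher and 492 lower genes at 2-fold stayed within 1.5 times under every other normalisation, filter and probe set rule tried (251 to 369 higher and 429 to 647 lower). They became 890 and 1386 at a fold of 1.5 and 92 and 169 at a fold of 3. Leaving out one siRNA comparison at a time, 572 to 692 of the 2-fold genes shared the sign of the mean siRNA difference. Without a filter on dim genes the 7 higher mucosal defence genes became 15 and the 4 higher myeloid genes became 7, and a filter at the dimmer 50% of genes left 1 myeloid gene. The 5 lower stem cell markers became 2 without normalisation, 2 with centring on the 75th percentile and 3 with that stricter filter.

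With the siGFP mean in place of the shLacZ array, an alternative chosen after seeing the data, 350 genes were higher and 504 lower, of which 181 and 244 were the same genes as with shLacZ. The higher STAT3 genes went from 2 to 4 and the lower stem cell markers from 5 to 3. Of the 154 named genes at 2-fold, 143 kept their direction and 11 reversed: Adh1 (0.68), Cyp2b10 (0.83), Fbln1 (0.15), Pla2g2a (0.038), Slc10a2 (-0.87), Slc2a2 (1.45), Slc7a8 (0.071), Sst (0.036), Tap1 (-0.34), Trim15 (-0.41) and Zbp1 (-0.14). Beside the lists given above with both controls, medians also turned sign for the Notch (-0.14), DNA replication (0.16), enteroendocrine (0.08), retinol (0.08), PPAR (0.15), immediate early (-0.14), tight junction (-0.43), epithelial (-0.36), fibroblast (-0.21), endothelial (-0.14) and erythroid (-0.25) lists. The cause was not tested. Yap1 moved between -0.10 and -0.05 and Wwtr1 between 0.01 and 0.18 over the alternatives.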

Other observations

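Some genes set shLacZ, rather than shYAP/TAZ, apart from the other arrays. Bmp4, a growth factor that the tissue under the epithelium secretes to restrain crypts, was at 8.34 in shLacZ and 5.29 in shYAP/TAZ, while the siRNA-arm arrays lay between 5.85 and 6.69. Of the 789 genes at 2-fold, 129 (16.3%) had shLacZ alone outside the siGFP range, 343 (43.5%) had shYAP/TAZ alone outside it, 234 (29.7%) had both and 83 (10.5%) had neither. Over all genes the same shares were 15.9%, 18.6%, 18.1% and 47.3%.

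Further genes of amino acid and stress metabolism, chosen after their values were seen, shared the pattern of Chac1. Eif4ebp1, a brake on translation that ATF4 induces, was at 7.33 in shLacZ and 10.20 in shYAP/TAZ, and at 10.56 on siYAP/TAZ array 1 against 8.07 to 8.89 on the arrays siGFP 2, siGFP 3, siYAP/TAZ 2 and siYAP/TAZ 3 and 7.67 on siGFP 1. Mthfd2, a mitochondrial folate enzyme, was at 6.55 and 8.05 and at 9.46 on siYAP/TAZ array 1, and Psat1, an enzyme of serine synthesis, at 5.89 and 7.12 and at 8.69. Phgdh, which opens the same serine route, was dim on all arrays (5.03 to 5.59) and did not share the pattern.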
